A study of Homo sapiens with 16 samples.

Results

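The annexin genes ANXA1, ANXA2, ANXA3, ANXA4, ANXA5, ANXA6, ANXA7 and ANXA11 were examined in LP-1, a cell line of multiple myeloma, a cancer of antibody-secreting plasma cells. They were chosen by name, starting from ANXA1, which was selected on its rise with bortezomib in these same arrays, and they are 8 of the 20503 genes that could be named. 2 lines were compared: LP-1-cIAP2-eGFP cells, lentivirally transduced with the cDNA of cIAP2 and eGFP, and LP-1-eGFP cells, which received the eGFP vector alone. They are called the cIAP2 line and the control line. Each line was left untreated or given 10 nM bortezomib, a proteasome inhibitor, for 6 h or 24 h, with 2 biological replicates in each of the 8 conditions (16 one-colour arrays). The transduced cells were sorted for eGFP, and each vector is represented by 1 line. How many transductions gave each line is not stated in the study's text. cIAP2 is an inhibitor of apoptosis and a ubiquitin ligase encoded by BIRC3. Signals are given as quantile-normalized log2 values, so that 1 unit is a 2-fold difference.

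The BIRC3 probe read 13.54 to 13.67 on the 4 untreated control-line arrays and 11.92 to 12.13 on the 4 untreated cIAP2-line arrays, so it was lower in the overexpressing line. According to the study's methods this probe sees the cell's own transcript and not the vector's, and it therefore does not check the transgene. The plasma cell transcripts XBP1 and CD38 were well above background on all 16 arrays. That alone does not identify the cells, since some markers of other cell types were so too. The mean signals of the 7 plasma cell markers ran from 7.91 (SLAMF7) to 16.97 (XBP1). Those of KRT8, KRT18 and CD8A were 9.55, 9.55 and 6.61. SLAMF7, a surface marker of plasma cells, separated the lines: it read 10.54 to 11.22 in the cIAP2 line and 3.98 to 6.42 in the control line, where it was above background on 5 of the 8 arrays. Of the markers of other cell types, the keratins KRT8 and KRT18 were above background on 16 arrays, CD8A on 15, CD14 on 13, CD3D on 12, CD3E and COL1A1 on 10 each, MPO on 4, EPCAM on 2, and CSF1R and COL1A2 on 0. The part of these markers in the annexin results was not tested. Bulk RNA was measured, so that fewer expressing cells and less RNA per cell cannot be told apart. On 1 array, replicate 1 of the cIAP2 line with bortezomib at 24 h, the median signal was 3.18 on the log2 scale, against 5.73 to 6.64 on the others, and 35.5% of spots were well above background. The SD of the differences between that replicate pair was 1.48, against 0.50 to 0.77 in the other conditions. The annexin differences with bortezomib at 24 h in the cIAP2 line are also given without this dim array. That leaves 1 treated array, which is assumed to vary like the other conditions, and the p-values then rest on the spread of those alone, as they do wherever 1 array of a pair is left out.

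Annexins are cytosolic proteins that bind negatively charged phospholipids, mostly phosphatidylserine, when calcium rises. They share a conserved core of annexin repeats that forms the membrane-binding face, and differ in their amino-terminal tails, where several of them bind small EF-hand proteins of the S100 family. They are known for roles in membrane repair, vesicle fusion and, for annexin A1, the resolution of inflammation through formyl peptide receptors. Annexin A5 is the protein used as a stain for phosphatidylserine on dying cells, whereas the arrays report the mRNA that the myeloma cells themselves make.

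The promoters of ANXA1, ANXA2 and ANXA3 are shown because, with bortezomib at 24 h, ANXA1 and ANXA2 had the largest upward differences among the 8 and ANXA3 the largest downward one, in both lines. Each line gives, on the gene's own strand and 5′ to 3′, the 150 bases before the RefSeq transcription start (GRCh38.p14) at chr9:73151715-73151864 (plus strand) for ANXA1, chr15:60397987-60398136 (minus strand) for ANXA2 and chr4:78551620-78551769 (plus strand) for ANXA3. Capitals mark CG dinucleotides, the letters TATAAA and the letters TGAGTCA.
ANXA1: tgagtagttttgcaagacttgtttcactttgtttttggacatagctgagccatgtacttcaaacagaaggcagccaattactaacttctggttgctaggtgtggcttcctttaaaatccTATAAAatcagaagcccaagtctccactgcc
ANXA2: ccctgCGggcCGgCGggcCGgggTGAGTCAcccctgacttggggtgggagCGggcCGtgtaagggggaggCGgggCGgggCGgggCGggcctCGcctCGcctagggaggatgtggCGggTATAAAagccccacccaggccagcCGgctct
ANXA3: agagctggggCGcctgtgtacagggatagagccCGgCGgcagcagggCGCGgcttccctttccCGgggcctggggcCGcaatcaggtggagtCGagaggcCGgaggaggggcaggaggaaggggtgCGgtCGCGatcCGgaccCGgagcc
The ANXA1 stretch holds 0 CG dinucleotides, whereas those of ANXA2 and ANXA3 hold 14 each.

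RefSeq gave 12 promoter windows of 300 bases (250 before and 50 after the start) for the 8 genes, and 35116 windows in all. The ANXA1 window was 37.7% G and C and only 7.57% of all windows were poorer. The median window was 58.7% G and C and held 14 CG dinucleotides, and a window with 0 of them, as in ANXA1, made up 3.96% of the total. The 11 other annexin windows ranged from 51.7% (an ANXA11 start) to 78.0% (an ANXA4 start). The letters TATAAA lay at position -31 in both ANXA1 and ANXA2 and at -61 in 1 of the 3 ANXA11 windows, on the plus strand, and 11.5% of all windows held them on either strand. The 7 letters TGAGTCA or TGACTCA, which are each other's reverse complement, occurred at -127 in ANXA2 and in 4.95% of all windows. GAANNTTC (6.77% of all windows, either strand) was found in 0 annexin windows, and TGACNNNGC (13.3%) in ANXA7 alone. These are matches of letters, with no measurement of binding.

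**Figure D1:**
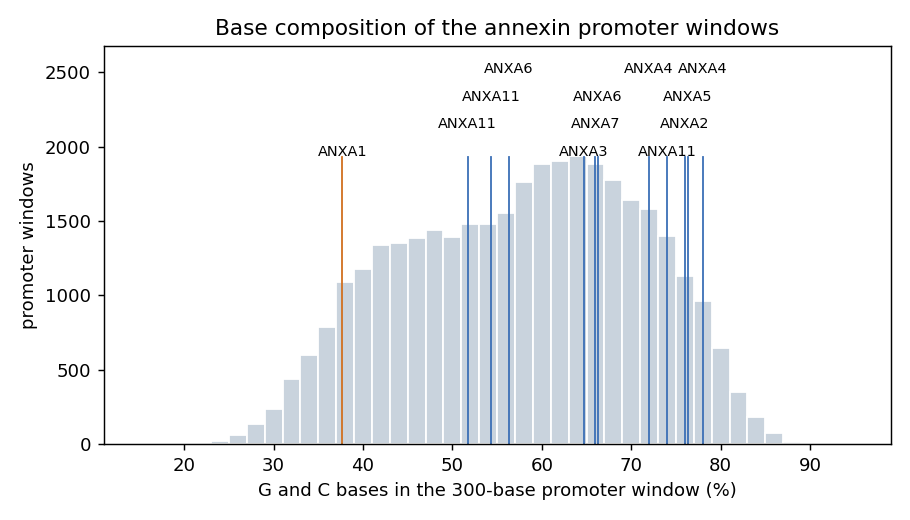
Share of G and C bases (%) in the 300-base RefSeq promoter windows of all genes (grey bars, number of windows) and in the 12 windows of the 8 annexin genes (lines). ANXA1, in orange at 37.7%, stands alone to the left of the others, which begin at 51.7%.

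ANXA1 encodes annexin A1, the glucocorticoid-regulated, formyl-peptide-receptor-binding annexin. In the control line it read 7.89 and 8.49 untreated at 6 h, and 6.45 and 6.72 untreated at 24 h. With bortezomib it read 8.73 and 9.36 at 6 h, and 14.40 and 14.55 at 24 h. In the cIAP2 line it read 6.17 and 6.76 untreated at 6 h, and 5.62 and 6.09 untreated at 24 h. With bortezomib these became 7.02 and 7.38 at 6 h, and 14.61 and 14.75 at 24 h. In both lines the order was therefore the same, from untreated at 24 h over untreated at 6 h and bortezomib at 6 h to bortezomib at 24 h, with no overlap between neighbouring conditions of a line.

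The bortezomib difference of ANXA1 was 0.86 at 6 h in the control line and 0.73 in the cIAP2 line, and at 24 h it was 7.89 and 8.83, that is, 238-fold and 454-fold. These values chose the gene and are a description without a test. In the control line the 6 h value was 0.54 without bortezomib 6 h replicate 1 and 1.17 without replicate 2. At 24 h it ranked 3 and 2 from the top of 16398 genes, and at 6 h 694 of 16398 and 1027 of 16392. With normexp background correction, which raises low signals, the 24 h differences were 6.97 and 7.62. The difference in the cIAP2 line was 8.90 without the dim array. In untreated cells ANXA1 was 1.11 lower at 24 h than at 6 h as a mean over the lines (log2 difference -1.11, and -0.72 with normexp correction and -1.52 within 1 slide), and this too is given without a test.

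**Figure D2:**
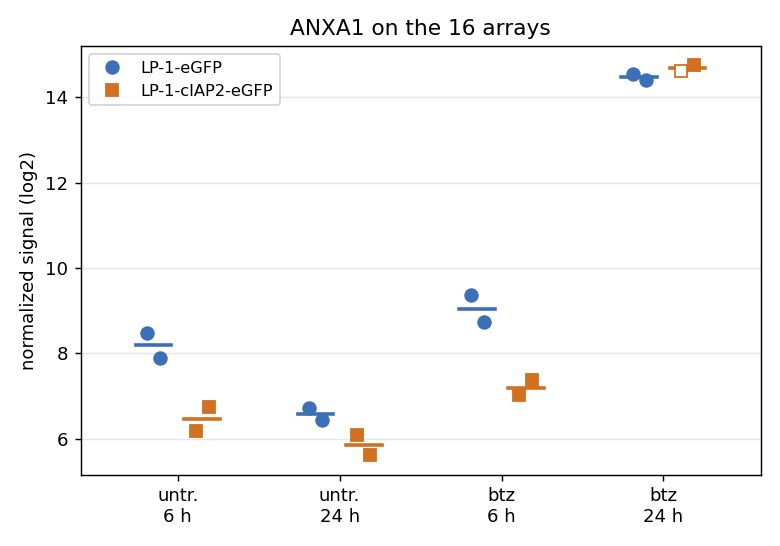
Normalized ANXA1 signal (log2, vertical axis) on each of the 16 arrays, by treatment (untr., untreated; btz, bortezomib) and time; short bars are means of 2 replicates and the open square is the dim array. All 4 arrays of bortezomib at 24 h lie at 14.40 to 14.75, and the other 12 lie at 9.36 or below.

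The line comparison asked whether the annexins differed between the cIAP2 line and the control line, and was not used to choose ANXA1. With 1 line per vector, cIAP2 overexpression cannot be told apart from other differences between the lines. An adjusted p below 0.05 (limma, Benjamini-Hochberg over all probes tested) counted as passing. Over the 8 conditions 3 of 8 annexins passed, ANXA1 and ANXA11 lower and ANXA3 higher in the cIAP2 line, against 16.1% of all probes in either direction (6.26% higher and 9.84% lower). The median of the 8 differences was 0.05 and that of all probes -0.02. ANXA1 was 2.04-fold lower (log2 difference -1.03 ± 0.15 SE, n = 8 per line, adjusted p = 0.0013), and its arrays overlapped between the lines, among the untreated ones as well. In untreated cells 3 of 8 passed as well, against 7.75% of all probes, and ANXA1 was lower (log2 difference -1.23 ± 0.22 SE, adjusted p = 0.0069).

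Taken condition by condition, the ANXA1 line difference was -1.73 untreated at 6 h (adjusted p = 0.014, 3.09% of probes passing) and -0.73 untreated at 24 h (adjusted p = 0.37, 2.77%). It was -1.85 with bortezomib at 6 h (adjusted p = 0.010, 3.31%) and 0.20 with bortezomib at 24 h (adjusted p = 0.70, 5.92%). At 24 h of bortezomib the 4 arrays of both lines lay within 14.40 to 14.75. With bortezomib at 6 h the lines lay on different slides, and line and slide cannot be told apart there.

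ANXA11, which with ANXA7 has a long amino-terminal tail and takes part in RNA granule transport on lysosomes, separated the lines. On the 8 control-line arrays it ranged from 13.91 over a median of 14.00 to 14.18, and on the 8 cIAP2-line arrays from 13.00 over 13.08 to 13.47. The groups did not overlap, which held for 1 of the 8 annexins and for 3.29% of the probes measured on all arrays. The difference was -0.89 ± 0.08 (SE, 1.85-fold lower, adjusted p = 4.2e-05), and it passed in each of the 4 single conditions, with values from -0.83 to -1.01. The bortezomib differences of ANXA11 were between -0.02 and 0.24 and did not pass.

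ANXA3, a small annexin with a short tail, was the only annexin to pass as higher in the cIAP2 line. The difference over the 8 conditions was 0.94 ± 0.12 (SE, 1.92-fold, adjusted p = 0.00062). In the control line it ranged from 7.23 over a median of 8.09 to 9.23, and in the cIAP2 line from 8.31 over 8.96 to 10.00. Within every condition both cIAP2-line arrays were above both control-line arrays, but among the single conditions only bortezomib at 24 h passed (1.25, adjusted p = 0.019). The share of all probes that separate so within every condition was not counted. In untreated cells the difference was 0.84 (adjusted p = 0.017). That call was lost without any of 5 single arrays, namely the cIAP2-line arrays untreated 24 h replicate 1 (adjusted p = 0.051), untreated 24 h replicate 2 (0.066) and untreated 6 h replicate 2 (0.070), and the control-line arrays untreated 6 h replicate 1 (0.075) and untreated 24 h replicate 1 (0.060).

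The remaining 5 annexins, ANXA2, ANXA4, ANXA5, ANXA6 and ANXA7, had line differences over the 8 conditions from -0.30 (ANXA4, adjusted p = 0.13) to 0.18 (ANXA6, adjusted p = 0.23), none of them past the threshold (1 of these 5, ANXA4, had an unadjusted p below 0.05). ANXA6 passed with normexp correction at 0.27 (adjusted p = 0.043) and without the dim array at 0.23 (adjusted p = 0.043), and without the other replicate of that condition ANXA4 passed at -0.40 (adjusted p = 0.0029).

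**Figure D3:**
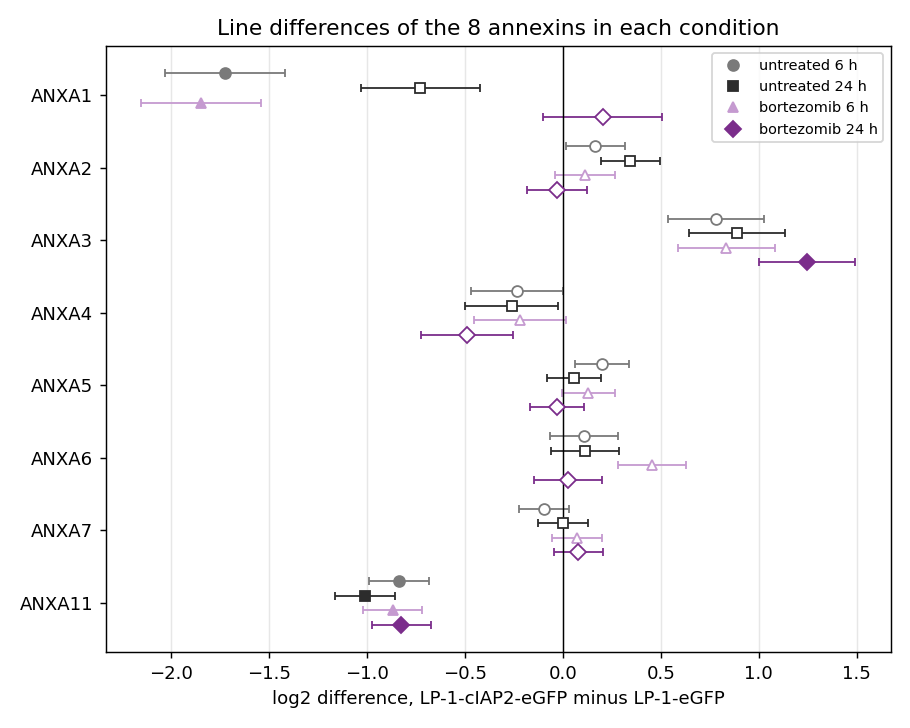
Log2 difference between the lines (the cIAP2 line minus the control line, horizontal axis) of the 8 annexins in each of the 4 conditions, with bars of 1 SE; filled symbols have an adjusted p below 0.05. ANXA11 is filled in all 4 conditions, at -0.83 to -1.01, and the ANXA1 differences run from -1.85 to 0.20.

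The next comparison asked how the 7 annexins other than ANXA1 responded to bortezomib. At 24 h, 5 of 7 passed in each line, the same 5: ANXA2, ANXA5 and ANXA7 were higher and ANXA3 and ANXA4 lower. The background was 21.0% of all probes in the control line (9.81% higher, 11.2% lower) and 28.6% in the cIAP2 line (11.1% higher, 17.5% lower). It includes dimmer probes than those of the annexins, and the share among probes as bright was not counted. The medians of the 7 differences were 0.17 and 0.24, and those of all probes -0.03 and -0.16. At 6 h 0 of 7 passed in either line, against 1.95% of all probes in the control line and 1.09% in the cIAP2 line. At an unadjusted p below 0.05 these were 2 of 7 (ANXA2 and ANXA7) and 3 of 7 (ANXA2, ANXA6 and ANXA7). Of all calls at 6 h in the cIAP2 line 70.2% were higher with bortezomib, and 81.7% with 75th percentile scaling. Array weights, which give less weight to arrays with more spread, came out equal for both replicates of each condition. They were lowest (0.13) for the cIAP2 line with bortezomib at 24 h, so the dim array was not singled out. With these weights 3 of 7 passed at 6 h in the control line and 2 of 7 in the cIAP2 line. At 24 h in the cIAP2 line 0 of 7 passed (adjusted p = 0.18 for ANXA2, 0.12 for ANXA3, 0.069 for ANXA4, 0.29 for ANXA5 and 0.12 for ANXA7). Leaving out the dim array, the differences there were 0.90 for ANXA2, -1.23 for ANXA3, -0.77 for ANXA4, 0.60 for ANXA5 and 0.75 for ANXA7, with adjusted p-values of 0.0027 to 0.011 that rest on the spread of the other conditions, and 0.30 for ANXA6 (adjusted p = 0.22).

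ANXA2 encodes annexin A2, which forms a heterotetramer with S100A10 and, on the cell surface, binds plasminogen and its activator. In the control line it read 15.47 and 15.49 untreated and 16.61 and 16.65 with bortezomib at 24 h. In the cIAP2 line it read 15.81 and 15.84 untreated and 16.48 and 16.72 treated. The arrays did not overlap in either line, but these are 2 against 2, and the share of all probes that separate so was not counted. The differences were 1.15 ± 0.15 (SE, 2.22-fold, adjusted p = 0.00058) and 0.77 ± 0.15 (1.71-fold, adjusted p = 0.0041). At 6 h ANXA2 was 0.53 (adjusted p = 0.13) and 0.48 (adjusted p = 0.23) higher without passing. Leaving out either cIAP2-line bortezomib 24 h array gave the former an adjusted p of 0.044, through the shared estimate of spread. Normexp correction brought the 24 h difference in the cIAP2 line to 0.34 (adjusted p = 0.39), and 75th percentile scaling gave it an adjusted p of 0.053.

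A second, dimmer ANXA2 probe gave 1.07 (adjusted p = 0.25) and 1.40 (adjusted p = 0.095) at 24 h, without passing. Its arrays overlapped in the control line, where the value was 0.28 without untreated replicate 1 and 1.85 without untreated replicate 2. For the cIAP2 line it was 0.66 without the dim array (adjusted p = 0.49) and 2.15 without the other treated array (adjusted p = 0.014). ANXA2 has near-identical processed pseudogenes, so its signal may be shared with them. The probe named for ANXA2P1 rose by 1.41 and 0.94 at 24 h (adjusted p = 0.00014 and 0.0010), side by side with ANXA2. That named for ANXA2P3 differed by 1.14 (adjusted p = 0.21) and 1.70 (adjusted p = 0.048). In the latter case the dim array read 9.90 and the other treated array 7.74. Cross-hybridisation was not tested.

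ANXA5 read 14.56 and 14.62 untreated and 15.06 and 15.21 with bortezomib at 24 h in the control line. The corresponding values in the cIAP2 line were 14.62 and 14.67, and 14.96 and 15.25. ANXA5 was higher with bortezomib at 24 h in both lines, by 0.55 ± 0.14 (SE, adjusted p = 0.018) and 0.46 ± 0.14 (adjusted p = 0.033). With 75th percentile scaling the differences were 0.28 and 0.17 (adjusted p = 0.48 and 0.63), with normexp correction 0.59 and 0.24 (adjusted p = 0.085 and 0.44), and without a filter on signal the adjusted p-values were 0.065 and 0.093. In the control line the call was lost without untreated 24 h replicate 1 (0.58, adjusted p = 0.052) or replicate 2 (0.52, adjusted p = 0.085), or bortezomib 24 h replicate 1 (0.48, adjusted p = 0.12). In the cIAP2 line it was lost on leaving out any of 9 of the 16 arrays, with an adjusted p of up to 0.14. Among them were untreated 24 h replicate 1 (0.43) and replicate 2 (0.48) and bortezomib 24 h replicate 2 (0.32), and 6 arrays at 6 h that act only through the estimate of spread, both replicates of the cIAP2 line with bortezomib, of the control line untreated and of the control line with bortezomib.

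ANXA7, which promotes membrane fusion and binds sorcin, read 13.94 and 13.98 untreated and 14.52 and 14.62 with bortezomib at 24 h in the control line. It read 13.95 and 13.98, and 14.58 and 14.71, in the cIAP2 line. The differences were 0.61 ± 0.13 (SE, adjusted p = 0.0072) and 0.69 ± 0.13 (adjusted p = 0.0031). At 6 h they were 0.42 (adjusted p = 0.16) and 0.59 (adjusted p = 0.069). The call in the control line was lost without bortezomib 24 h replicate 1 (0.56, adjusted p = 0.055), and the 6 h difference in the cIAP2 line passed without either of that line's bortezomib 24 h arrays (adjusted p = 0.019). Under 75th percentile scaling the 24 h differences were 0.40 and 0.37 (adjusted p = 0.28 and 0.25). A second ANXA7 probe gave 0.25 and 0.48 (adjusted p = 0.25 and 0.055), the latter against 1 untreated array, since the other spot was dropped.

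ANXA3 fell most among the 7. At 24 h it read 8.92 and 9.23 untreated and 7.23 and 7.32 with bortezomib in the control line, and 9.93 and 10.00 against 8.31 and 8.74 in the cIAP2 line. The differences were -1.80 ± 0.25 (SE, 3.48-fold lower, adjusted p = 0.00072) and -1.44 ± 0.25 (2.71-fold lower, adjusted p = 0.0020), and both passed without any single array. At 6 h they were -0.09 and -0.04 (adjusted p = 1.0 and 0.99). Untreated ANXA3 was 0.96 higher at 24 h than at 6 h as a mean over the lines, without passing (adjusted p = 0.30). Within each line both untreated 24 h arrays read above both untreated 6 h ones, whereas across the lines they overlapped.

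ANXA4, known for membrane trafficking in secretory epithelia, read 12.69 and 12.90 untreated and 11.82 and 11.88 with bortezomib at 24 h in the control line. In the cIAP2 line it read 12.49 and 12.57 untreated and 10.96 and 11.76 treated, the lower of these on the dim array. The differences were -0.94 ± 0.24 (SE, 1.92-fold lower, adjusted p = 0.019) and -1.16 ± 0.24 (2.24-fold lower, adjusted p = 0.0050). Without the dim array the second was -0.77 (adjusted p = 0.0099). The first was lost without control-line bortezomib 24 h replicate 1 (-0.91, adjusted p = 0.094) or replicate 2 (-0.97, adjusted p = 0.066), or untreated 24 h replicate 2 (-0.83, adjusted p = 0.11), and with normexp correction (-0.87, adjusted p = 0.26).

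ANXA6, the annexin with a duplicated core that acts in cholesterol and endosome transport, read 12.16 to 12.45 untreated and 12.27 to 12.69 with bortezomib at 24 h over both lines, and the ranges overlapped. The 24 h differences were 0.17 and 0.09 (adjusted p = 0.60 and 0.74). At 6 h ANXA6 was higher in the cIAP2 line by 0.68 (12.39 and 12.44 untreated, 12.98 and 13.22 treated, adjusted p = 0.12) and in the control line by 0.34 (adjusted p = 0.54), without passing. Without either cIAP2-line bortezomib 24 h array the first of these had an adjusted p of 0.026. ANXA11 differed by 0.05 and 0.24 at 24 h (adjusted p = 0.89 and 0.27). The latter was 0.44 without the dim array (adjusted p = 0.027).

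**Figure D4:**
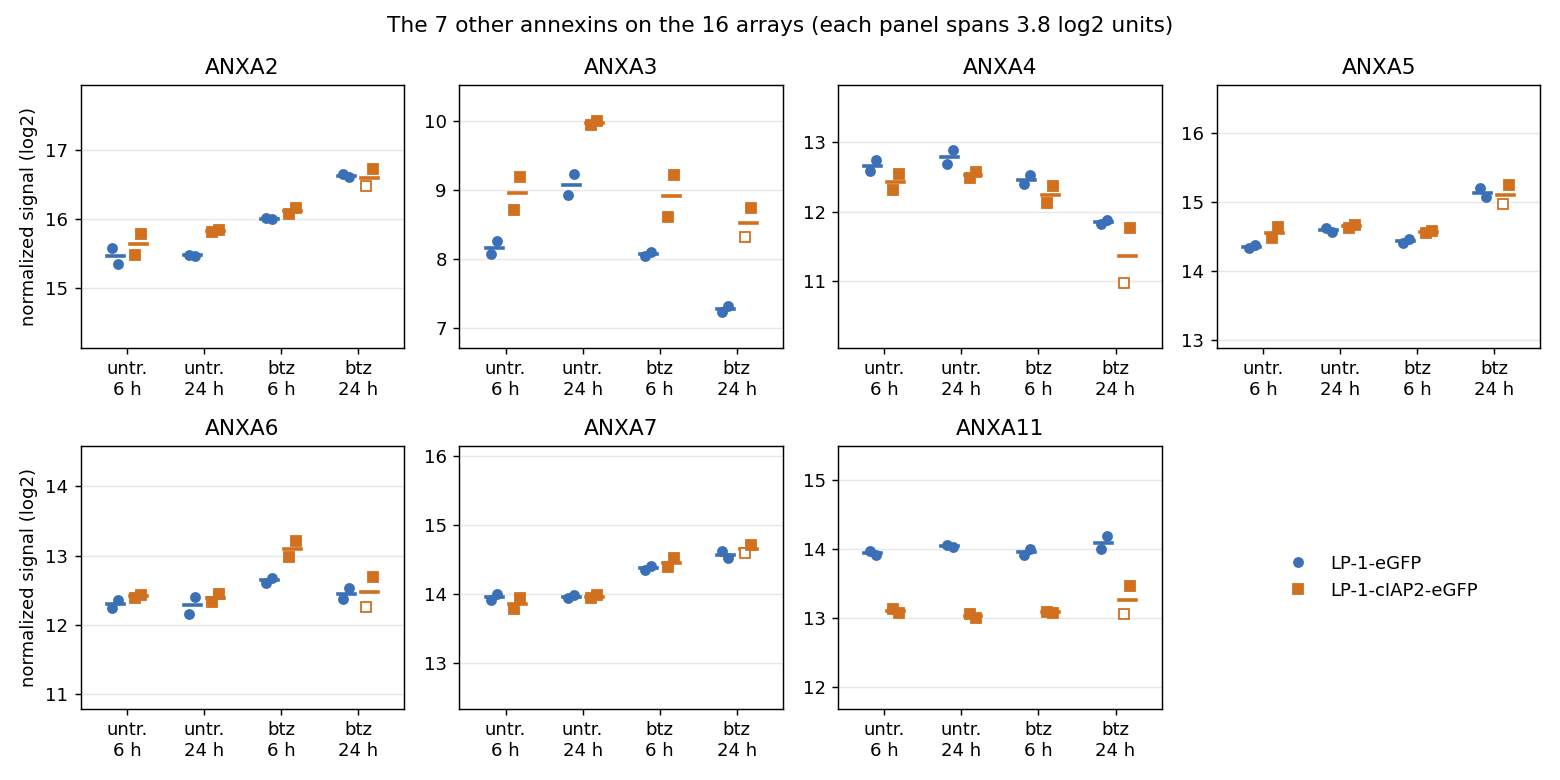
Normalized signal (log2, vertical axis) of the 7 other annexins on the 16 arrays, by treatment and time; bars are means of 2 replicates and the open square is the dim array. ANXA2, ANXA5 and ANXA7 are higher and ANXA3 and ANXA4 lower with bortezomib at 24 h, and the ANXA11 symbols of the lines do not overlap.

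**Figure D5:**
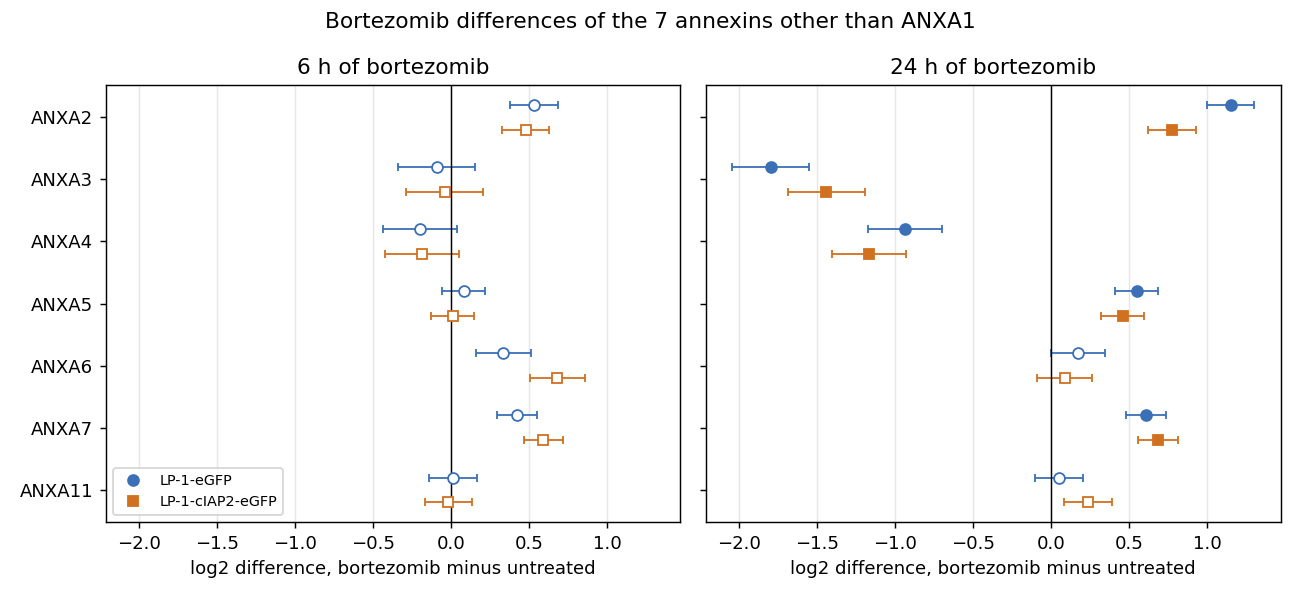
Log2 difference between bortezomib and untreated cells (horizontal axis) at 6 h and 24 h for the 7 annexins other than ANXA1, with bars of 1 SE; filled symbols have an adjusted p below 0.05. At 6 h 0 of 7 are filled, and at 24 h 5 of 7 are filled in each line.

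The difference between the lines in the bortezomib response was tested directly. At 6 h 0 of 7 annexins passed, against 0.00297% of all probes, and at 24 h 0 of 7, against 0.0712%; at an unadjusted p below 0.05 it was 0 of 7 at both times. Of the 24 probes that passed at 24 h, 16 had the larger value in the cIAP2 line and 8 the smaller, against 49 and 22 with normexp correction, 7 and 2 with 75th percentile scaling and 5 and 4 in the authors' table. The 24 h estimates (the cIAP2 line minus the control line) ran from -0.38 ± 0.21 for ANXA2 to 0.36 ± 0.35 for ANXA3 (adjusted p = 0.63 and 0.69). Without the dim array these were -0.25 and 0.57 (adjusted p = 0.88 and 0.81), and that of ANXA4 went from -0.23 to 0.17 (adjusted p = 0.95). SEs of this size do not show that the lines responded alike. That of ANXA1 was 0.93 and is given without a test.

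Between 6 h and 24 h, untreated cells differed in 0 of 7 annexins (0.00890% of all probes), and in 1 of 7, ANXA3, at an unadjusted p below 0.05. With bortezomib 5 of 7 passed, against 27.9% of all probes. ANXA2 (0.55, adjusted p = 0.0038) and ANXA5 (0.62, adjusted p = 0.0012) were higher at 24 h. With 75th percentile scaling both calls were lost (0.38, adjusted p = 0.12, and 0.27, adjusted p = 0.27). That of ANXA2 was also lost with normexp correction (0.35, adjusted p = 0.24) and with array weights (adjusted p = 0.053). ANXA3 (-0.59, adjusted p = 0.030), ANXA4 (-0.75, adjusted p = 0.0083) and ANXA6 (-0.40, adjusted p = 0.035) were lower. Without the dim array ANXA3 (-0.48, adjusted p = 0.070) and ANXA6 (-0.30, adjusted p = 0.055) were lost, and ANXA11 passed (0.26, adjusted p = 0.032). ANXA6 passed on leaving out only 4 of the 16 arrays, and ANXA3 on 10. ANXA7 did not pass here (0.20, adjusted p = 0.14). In this comparison 6 of the 7 plasma cell markers were lower and SLAMF7 was higher, a call lost without any of 4 arrays. KRT18 was higher (0.75). CD8A and COL1A1 were called lower, calls lost on leaving out any of 14 and 13 of the 16 arrays. The part of these markers was not tested.

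Pearson's r with ANXA1 over the 16 arrays was 0.85 for ANXA2, 0.81 for ANXA5 and 0.81 for ANXA7. It was 0.29 for ANXA11, -0.03 for ANXA6, -0.69 for ANXA3 and -0.81 for ANXA4. The points share the 2 lines and the 4 arrays of bortezomib at 24 h, which stand apart, so r is a description. Of 15490 genes the 5 most alike were EZR (0.98), which encodes the membrane-cytoskeleton linker ezrin, CSRNP2, DOK4, SNHG12 and ENTPD4. The 5 most opposite were TSTD1 (-0.99), CCDC28B, CCR10, which encodes the chemokine receptor of plasma cells homing to epithelia, DUT, which encodes the dUTP-hydrolysing enzyme, and FIBP. The EZR signal with bortezomib at 24 h was 14.53 to 14.65 over both lines.

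The S100 proteins are EF-hand partners of annexin tails. 6 of the 7 listed were tested. Over the 8 conditions S100A10 and S100A11 were higher and S100A6, S100A4 and S100A1 lower in the cIAP2 line. Of all probes 16.1% passed in that comparison (6.26% higher and 9.84% lower). S100A10, the partner of annexin A2, ranged from 13.37 over a median of 13.77 to 13.95 in the control line and from 14.52 over 15.18 to 15.93 in the cIAP2 line. The difference was 1.47 ± 0.08 (SE, adjusted p = 1.8e-06), whereas ANXA2 itself differed by 0.15 (adjusted p = 0.24). S100A11, the partner of annexin A1, ranged from 11.73 to 13.02 and from 13.78 to 14.27, a difference of 1.64 ± 0.11 (adjusted p = 1.1e-05), opposite in sign to ANXA1. S100A6, which binds annexins A2 and A11, ranged from 10.28 to 11.22 and from 8.25 to 9.61 (difference -2.06 ± 0.13, adjusted p = 7.4e-06). None of these 3 overlapped between lines, which held for 3.29% of the probes measured on all arrays.

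With bortezomib at 24 h, 21.0% of all probes passed in the control line and 28.6% in the cIAP2 line. S100A4 rose in both lines (1.24 in the control line, adjusted p = 0.013, and 0.96 in the cIAP2 line, adjusted p = 0.034). The 2 probes of S100A1 went opposite ways. The brighter was higher with bortezomib (2.07, adjusted p = 0.0029, and 1.88, adjusted p = 0.0038). In the cIAP2 line this probe was not above background on the dim array, 1 of the 2 treated ones. Leaving out single arrays gave 1.56 to 2.21 there. The dimmer was called lower in both lines (adjusted p = 0.028 and 0.029). It was above background on 4 of the 4 untreated and 0 of the 4 treated arrays at 24 h, so that no size is given, and each call was lost on leaving out single arrays. Over the 8 conditions the dimmer S100A1 probe differed between the lines by 0.18 (adjusted p = 0.66), so that the direction of S100A1 depends on the probe. S100A10 rose in the cIAP2 line (0.68, adjusted p = 0.0089) and was at -0.04 in the control line (adjusted p = 0.91), a difference between lines of 0.72 (adjusted p = 0.45). The S100A4 call was lost on leaving out any of 4 of the 16 arrays in the control line (adjusted p of up to 0.066) and 5 in the cIAP2 line, among them the dim array (1.07, adjusted p = 0.058) and untreated 24 h replicate 1 (0.50, adjusted p = 0.23). That of S100A10 was lost without untreated 24 h replicate 2 (0.61, adjusted p = 0.066). Of the other EF-hand partners, SRI, which encodes sorcin, was higher in the cIAP2 line over the 8 conditions (0.81, adjusted p = 0.00076), and PDCD6, which encodes ALG-2, was not called there (0.11, adjusted p = 0.31). With bortezomib at 24 h SRI was lower in the control line (-0.71, adjusted p = 0.045, a call lost on leaving out any of 14 of the 16 arrays) and at -0.59 in the cIAP2 line (adjusted p = 0.074, and -0.80, adjusted p = 0.036, without the dim array). Between 6 h and 24 h of bortezomib it fell by 1.01 (adjusted p = 0.0010).

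Partners of annexin A1 and A2 outside the cell were mostly not well above background. Of the formyl peptide receptors, FPR2 was above it on 0 arrays, FPR3 on 1 and FPR1 on 8. Of 6 receptors and effectors 4 were tested and 0 passed in the 4 bortezomib comparisons (1.95% and 1.09% of all probes passing at 6 h, and 21.0% and 28.6% at 24 h) or between lines (16.1%), and with so few genes this is no result about them. In the plasmin system PLG was above background on 1 array and PLAT on 0, and 0 of the 2 genes tested, PLAU and PLAUR, passed in the same comparisons. Between 6 h and 24 h of bortezomib, where 27.9% of all probes passed, FPR1 and PLAUR did so as well, both higher at 24 h. FPR1 was above background on 1 of the 4 arrays at 6 h and 2 of the 4 at 24 h, so that no size is given, and PLAUR (0.73, adjusted p = 0.041) lost its call on leaving out any of 7 of the 16 arrays, the dim array among them (0.63, adjusted p = 0.094). ANXA2R, a receptor for annexin A2 named after its values were seen, was lower in the cIAP2 line (log2 difference -1.81, adjusted p = 3.7e-05). Among further annexins ANXA9 was above background on 1 array, ANXA10 on 0 and ANXA13 on 5. ANXA13, the only one of them tested, did not pass in the 4 bortezomib comparisons or between the lines.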

How the data were processed

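RNA of 16 LP-1 samples was hybridised by the authors to one-colour Agilent 8x60K arrays. The deposited scanner files give background-corrected intensity (gProcessedSignal), median intensity and background per spot. The authors' normalized table holds log2 values, median-centred per probe; each column matched its own array (r of at least 0.997). For the present work non-uniform and outlier spots were dropped, log2 intensities averaged per probe and quantile normalized, which forces the same distribution on arrays of unequal brightness. The fit kept probes that the scanner software marked as above background in both replicates of some condition (33731 of 50599), with limma 3.58.1 in R 4.3.3 and 8 condition means. P-values were adjusted by Benjamini-Hochberg over all probes tested and cover the spread between 2 biological replicates. Probes were named through RefSeq accessions (28174 probes). A gene is shown by its tested probe of highest mean signal.

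The members and lists were chosen with earlier results of these data known. All 8 annexins passed the filter, and all had a probe well above background on all 16 arrays, with 0 saturated spots. Of the 33731 probes kept 14867 were above background on all arrays, so the shares of all probes include dimmer ones. All members are named. Of the other lists up to 4 genes are named per comparison, by size of difference among those passing or in list order (1 more S100 gene and the remaining cell type markers were added after their values were seen), as are the 5 genes with the highest and the 5 with the lowest r with ANXA1. ANXA1 has no test where the choice used its bortezomib response or time course. The methods were tested on simulated data. Alternatives covered scaling, background correction, the authors' table, filters, replicate and slide blocks, array weights, probe averaging, a 2-fold limit and single arrays left out. Within-slide values could be had for 1 slide per bortezomib comparison. The number of arrays limits the precision.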

Additional observations from a re-analysis of the deposited data

How the results depend on the processing

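Among the 7 or 8 annexins counted per comparison, no called difference changed sign under the alternatives run, and the authors' table gave the same counts as reported. That table comes from the same arrays and matched them closely (r of at least 0.997), so it is no independent check. The median of all probes for bortezomib at 24 h in the cIAP2 line was -0.16 with quantile normalization and 0.21 with 75th percentile scaling. The counts of passing annexins at 24 h in the control line (5 of 7) were 3 with 75th percentile scaling, 3 with normexp and 2 with the 2-fold limit, and 2 to 5 with single arrays left out (2 without bortezomib 24 h replicate 1). In the cIAP2 line (5 of 7) they were 2 with 75th percentile scaling, 3 with normexp, 2 with the 2-fold limit and 0 with array weights (ANXA4 had the lowest adjusted p, 0.069), and 4 to 6 with single arrays left out. At 6 h in the control line (0 of 7) they were 3 with array weights, 2 with only probes above background on each of the 16 arrays, and 0 to 1 with single arrays left out. At 6 h in the cIAP2 line (0 of 7) they were 2 with array weights, 2 with only probes above background on each of the 16 arrays, 2 with the replicate block, and 0 to 2 with single arrays left out. For the line difference the 2-fold limit left 1 of 3 over the 8 conditions and 1 of 3 in untreated cells, normexp gave 4 of 8 over the 8 conditions, and single arrays left out gave 3 to 4 and 2 to 3. For 24 h against 6 h with bortezomib (5 of 7) the counts were 2 with 75th percentile scaling, 2 with array weights, 3 with normexp, 3 without a filter, 3 with slide as a block, 0 with the 2-fold limit, and 3 to 5 with single arrays left out. The cause was not tested.

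Replicate numbers did not pair the samples (r of -0.11 to 0.24 over 28 pairs of conditions, 7 above 0.1). The replicate block gave ANXA6 and ANXA7 adjusted p-values of 0.043 and 0.046 at 6 h in the cIAP2 line, and changed no other call. With slide as a block, ANXA5 at 24 h in the cIAP2 line was 0.46 (adjusted p = 0.067). Within 1 slide the 24 h differences in the control line and the cIAP2 line were 1.13 and 0.79 for ANXA2, -1.75 and -1.41 for ANXA3, -0.91 and -1.13 for ANXA4, 0.48 and 0.48 for ANXA5, and 0.56 and 0.70 for ANXA7.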

Other observations

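Genes of 2 processes in which annexins take part are given for bortezomib at 24 h, where 21.0% of all probes passed in the control line and 28.6% in the cIAP2 line. Of 7 tested genes of phosphatidylserine exposure, 2 rose and 2 fell in the control line, and 3 rose and 3 fell in the cIAP2 line. Among the latter were PLSCR3 (-0.87, adjusted p = 0.042, and -0.32, adjusted p = 0.091, without the dim array), a call lost on leaving out any of 15 of the 16 arrays, and TMEM30A, higher by its brighter probe (0.67, adjusted p = 0.0049) and at -0.39 by its second (adjusted p = 0.21), which was lower in the control line (-1.20, adjusted p = 0.0035). PLSCR1, a phospholipid scramblase, rose by 1.20 (adjusted p = 0.00086) and 1.08 (adjusted p = 0.0013), and XKR8, the scramblase activated by caspase cleavage, by 0.70 (adjusted p = 0.0030) and 0.95 (adjusted p = 0.00040). The flippase gene ATP11A (-1.15, adjusted p = 0.00098, and -0.76, adjusted p = 0.0072) fell in both lines, and without the dim array, which leaves 1 treated array, its difference in the cIAP2 line was -0.52.

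Of 11 tested membrane repair genes, 1 rose and 3 fell in the control line, and 1 rose and 2 fell in the cIAP2 line, the latter a share near that of all probes. VPS4B, the ATPase that takes apart ESCRT-III, rose by 0.52 (adjusted p = 0.039) and 0.50 (adjusted p = 0.037). CAV1, which encodes caveolin-1, fell by 2.19 (adjusted p = 5.2e-05) and fell by 0.57 (adjusted p = 0.043, and 0.12 without the dim array), and its second probe was at -1.14 (adjusted p = 0.00077) and 0.03 (adjusted p = 0.90). AHNAK, whose large protein binds the complex of annexin A2 and S100A10, fell by 0.89 (adjusted p = 0.031, and -0.46, adjusted p = 0.17, without untreated 24 h replicate 1) and fell by 1.35 (adjusted p = 0.0030), while its 2 other probes did not pass in the control line (-0.34 and -0.99, adjusted p = 0.13 and 0.075). CHMP4B fell in the control line (-1.43, adjusted p = 0.014) and was at -0.75 in the cIAP2 line (adjusted p = 0.13, and -0.33 without the dim array). The 8 listed genes of the proteasome inhibitor response, DNAJB1 and HMOX1 among them, were called higher in both lines at 24 h. Of these HSPA1A was above background on 0 of the 2 untreated and 1 of the 2 treated arrays of each line at 24 h, and its call in the control line was lost on leaving out any of 14 of the 16 arrays (adjusted p of up to 0.19). Of 7 plasma cell markers at 24 h, 5 fell and 1, SLAMF7, was called higher (adjusted p = 0.024, above background on 1 of the 2 untreated arrays) in the control line, and 6 fell in the cIAP2 line, with log2 differences of -1.80 and -3.11 for SDC1 and -1.70 and -2.14 for CD38. Between the lines over the 8 conditions 16.1% of all probes passed. Of the 7 plasma cell markers SLAMF7 (adjusted p = 2.3e-08) and SDC1 (1.42, adjusted p = 5.1e-06) were higher in the cIAP2 line, and CD38 was lower (-0.55, adjusted p = 0.0028). Of the markers of other cell types, KRT18 rose in the cIAP2 line (0.73, adjusted p = 0.037, and 0.40, adjusted p = 0.54, by its second probe) and was at 0.50 in the control line (adjusted p = 0.17), and CD3D, above background on 8 of the 8 control-line and 4 of the 8 cIAP2-line arrays, was lower in the cIAP2 line over the 8 conditions (adjusted p = 0.046), as was KRT18 (-0.41, adjusted p = 0.037). Besides PLSCR3 and HSPA1A, these calls were lost on leaving out any of a number of the 16 arrays: VPS4B (13 arrays in the control line and 11 in the cIAP2 line), CAV1 in the cIAP2 line (11), AHNAK, TNFRSF17, CHMP4B and SLAMF7 in the control line (5, 4, 3 and 3), PRDM1 in the control line (1 of 15, since 1 of its treated spots was dropped), KRT18 with bortezomib (11) and between the lines (13), and CD3D (13).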
